A study of Mus musculus with 24 samples.

Results

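The 10 genes described here are Slc2a1, Hk2, Pfkl, Aldoa, Pgk1, Ldha, Pdk1, Bnip3, Vegfa and Egln3, mouse genes of glycolysis and of the response to low oxygen. They were chosen by name, with earlier results of these data known, and followed across stage, limb and genotype. All 10 were among the 38019 gene symbols of each of 24 total RNA sequencing libraries of mouse limb buds (strain C57/Bl6). The study asked how growth and patterning of the limb depend on the minor spliceosome, the machinery that removes a small class of introns and needs the U11 small nuclear RNA, encoded by Rnu11. All embryos carried 2 floxed U11 alleles (U11flx/flx), and their genotype was U11flx/flx::Prrx1-Cre- (called WT here) or U11flx/flx::Prrx1-Cre+ (mutant). Prrx1-Cre is active in limb mesenchyme, so ectoderm, blood and endothelium in the same bud are not targeted by it. Forelimb (FL) and hindlimb (HL) buds were taken at E10.5 and E11.5, giving 8 groups of 3 libraries.

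Glycolysis carries glucose from its uptake by transporters through hexokinase, phosphofructokinase, aldolase and phosphoglycerate kinase to pyruvate, which lactate dehydrogenase A turns into lactate. When oxygen is low, prolyl hydroxylases no longer mark the factor HIF-1 for destruction, and HIF-1 binds hypoxia response elements near many of these genes, near Vegfa and Bnip3, and near its own regulator Egln3. Early limb buds are known as a tissue with high glycolytic activity.

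The hypoxia response element has the core ACGTG or GCGTG, so the 250 bases before the RefSeq start of each member (GRCm38.p6) were searched for these letters on both strands. At least 1 match was present in the first window, that of the most upstream annotated start, of 8 of 10 members, all but Aldoa and Vegfa. Each of the 10 had a match in some annotated window, a looser count for which no share over all genes is given. Counted by window, 12 of 15 held a match, and windows of the same gene can overlap. Of 32851 promoter windows of the same length, 38.6% held a match (ACGTG 16.6%, GCGTG 28.2%). The word CACGTG, in which ACGTG is read on both strands and is counted as 2 matches, was in 6.02% of windows. A match is only a run of letters here, and binding was not measured. Bases farther upstream were not searched, so a window without a match does not mean that the gene lacks the element. Whether matches go with the changes between stages was not tested. The 4 windows below are shown because Pgk1 and Ldha fell between stages in each limb and genotype, whereas Bnip3 fell in 1 of the 4 comparisons and Vegfa in 0. Each is written 5′ to 3′ on the gene's strand, with matches on either strand in capitals.
Pgk1 (chrX:106186850-106187099, plus strand): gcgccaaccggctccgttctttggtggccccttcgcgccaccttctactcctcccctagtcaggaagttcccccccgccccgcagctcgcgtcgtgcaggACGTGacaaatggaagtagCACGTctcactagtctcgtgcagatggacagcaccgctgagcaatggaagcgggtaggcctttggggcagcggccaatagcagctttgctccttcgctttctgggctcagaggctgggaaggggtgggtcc
Ldha (chr7:46845554-46845803, plus strand): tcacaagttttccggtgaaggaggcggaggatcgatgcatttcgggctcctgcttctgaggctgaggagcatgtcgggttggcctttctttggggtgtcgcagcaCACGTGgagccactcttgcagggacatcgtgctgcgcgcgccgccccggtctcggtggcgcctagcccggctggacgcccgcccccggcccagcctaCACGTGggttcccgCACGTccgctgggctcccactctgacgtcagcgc
Bnip3 (chr7:138909507-138909756, minus strand): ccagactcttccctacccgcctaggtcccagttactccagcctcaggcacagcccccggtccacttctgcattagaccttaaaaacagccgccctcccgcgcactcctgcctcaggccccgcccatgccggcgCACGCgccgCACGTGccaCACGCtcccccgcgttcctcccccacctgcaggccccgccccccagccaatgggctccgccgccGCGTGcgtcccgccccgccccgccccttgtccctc
Vegfa (chr17:46032378-46032627, minus strand): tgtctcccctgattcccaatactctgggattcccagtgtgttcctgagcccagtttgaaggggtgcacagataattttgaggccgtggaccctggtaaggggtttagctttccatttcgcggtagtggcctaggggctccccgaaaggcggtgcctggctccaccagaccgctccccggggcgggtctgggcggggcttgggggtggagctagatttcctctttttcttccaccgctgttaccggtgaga
The Pgk1 window held 2 matches, the Ldha window 5 (from 2 CACGTG words and 1 further ACGTG), the Bnip3 window 5 (2 ACGTG, from 1 CACGTG word, and 3 GCGTG) and the Vegfa window 0. A second annotated Vegfa window (chr17:46025164-46025413) held 2 matches, but it lies inside the span of the gene (chr17:46016993-46032369). The Ldha window lies inside the longer span that GENCODE M21 gives the gene (chr7:46841475-46855627).

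Values below are TPM (a level per transcript length, scaled to the sum of its library), which were rescaled so that the libraries share a common median. Changes are log2 fold changes of rescaled TPM + 1 with the standard error of limma's fit, and a gene is said to have risen or fallen where its Benjamini-Hochberg adjusted p over all genes tested was under 0.05. The added 1 makes the change of low genes smaller than the ratio of their levels. TPM keeps no read depth, so the counting error of low values is unknown. Which embryos the libraries came from is not in the labels, and a p therefore speaks only of spread among libraries, which may be technical. In a whole bud, fewer cells of a type and less RNA per cell cannot be told apart.

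Rnu11 was 251, 687 and 1063 rescaled TPM in E10.5 WT FL and 158, 94.2 and 482 in the libraries labelled mutant. In the other 3 pairs of groups every mutant library (135 to 420) was below every WT library (427 to 2087). E10.5 mutant FL replicate 3 thus had more Rnu11 than E10.5 WT FL replicate 1. That mutant library also had the hindlimb genes Tbx4 at 1.68 and Pitx1 at 1.53 rescaled TPM, against at most 0.676 and 0.0919 in the remaining FL libraries of that stage. The forelimb gene Tbx5 was 1.81 in it and 2.25 in WT replicate 1, against 5.24 to 10.1 in the other 4. All 8 limb mesenchyme markers checked were above 1 TPM in every library. Protein-coding genes took 13.6 to 32.8% of all TPM, and Xist reached 5 TPM in 6 libraries, all of them mutant. These were replicates 1 and 3 of both E10.5 mutant limbs and replicate 3 of both E11.5 mutant limbs. Among WT, 1 library had 1.32 rescaled TPM. A difference that goes with Xist is therefore not separated from the mutant effect where these libraries are used.

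Between E10.5 and E11.5 Pgk1, Ldha, Slc2a1 and Pdk1 fell in all 4 comparisons (WT and mutant, FL and HL), and Aldoa fell in 3. Where they fell, their mean levels at E11.5 were 38.6 to 72.9% of those at E10.5. Hk2, Pfkl and Egln3 passed in none of the 4, Vegfa passed in WT HL, where it rose, and Bnip3 fell in mutant FL and rose in mutant HL. The labels state that 3 nt were cut from the reads at E10.5 and state no such step at E11.5, so stage and trimming cannot be told apart.

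The members were chosen with earlier results of these data known, so their counts beside those of all genes describe them and are no test. In numbers, 5 of 10 members fell and 0 rose in WT FL, where 38.8% of 12399 genes changed, 16.4% fell and 22.4% rose. In mutant FL 6 fell and 0 rose (all genes, 35.4% changed, 17.3% fell and 18.1% rose). In WT HL 5 fell and 1 rose (40.9% changed, 17.9% fell and 23% rose). In mutant HL 4 fell and 1 rose (35.5% changed, 17.5% fell and 18% rose). The median change of the 10 members was -0.54, -0.66, -0.47 and -0.33 in that order, and that of all genes was 0.06, 0.01, 0.06 and 0.02. The 3 libraries of E11.5 all lay below the 3 of E10.5 in 5, 6, 5 and 4 members, as in 18.8%, 24.8%, 22.1% and 24.4% of all genes. They all lay above in 1, 0, 1 and 1 members (25.7%, 27.8%, 28% and 27.5% of all genes), which were Egln3, Vegfa and Bnip3. Without E10.5 WT FL replicate 1 and E10.5 mutant FL replicate 3 together, the libraries described above, 3 members fell in WT FL and 6 in mutant FL. The share of all genes in that fit is not given here, so these counts cannot be set against it. On the deposited scale 5, 2, 5 and 7 members passed, as did 22%, 8.23%, 34.5% and 50.9% of all genes, and 8.19%, 80.4%, 6.31% and 2.68% of all calls were higher, against 57.6%, 51.1%, 56.2% and 50.6% on the rescaled values.

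**Figure D1:**
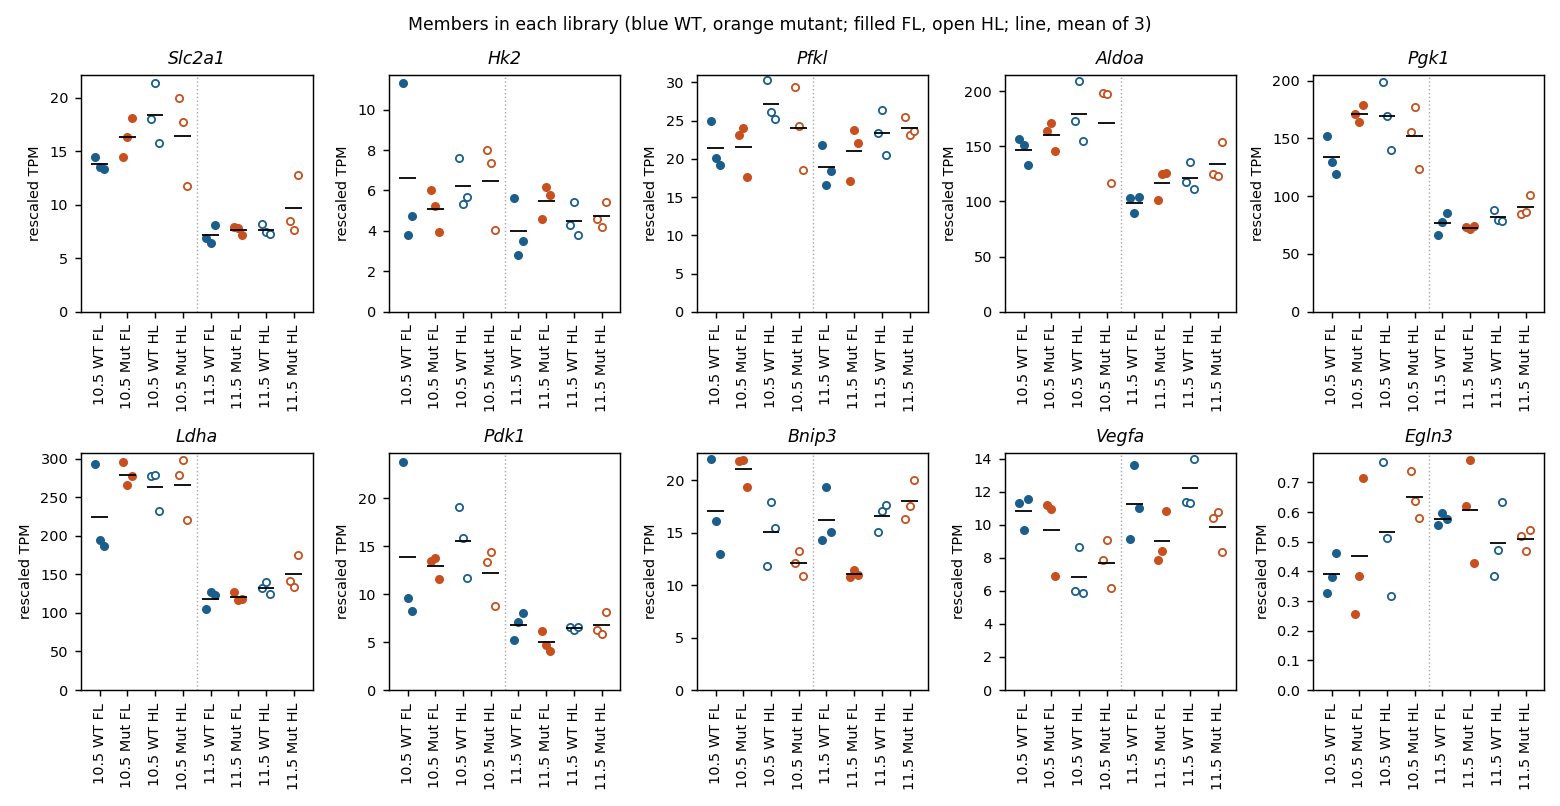
Rescaled TPM (vertical axis, from 0) of each of the 10 members in each of the 24 libraries, by group (horizontal axis, E10.5 before E11.5), with WT in blue, mutant in orange, FL filled, HL open, and the mean of 3 libraries as a line. Pgk1 and Ldha drop across the dotted line between the stages with no overlap (Pgk1 119 to 199 before, 66.4 to 101 after), whereas Bnip3 and Vegfa do not.

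Slc2a1 encodes GLUT1, the basal glucose transporter (chr4:119108711-119137983). In WT FL it was 14.5, 13.5 and 13.3 rescaled TPM at E10.5 and 6.92, 6.37 and 8.12 at E11.5. In WT HL it was 18.003, 21.4 and 15.7, then 8.15, 7.41 and 7.23. The 2 stages did not overlap in either WT limb. In mutant FL it was 14.5, 16.3 and 18.1, then 7.92, 7.79 and 7.18, again without overlap. In mutant HL it was 19.9, 17.7 and 11.7, then 8.48, 7.68 and 12.8, where the highest E11.5 library exceeded the lowest E10.5 one. The changes of Slc2a1 were -0.87 ± 0.17 in WT FL, -0.998 ± 0.17 in mutant FL, -1.16 ± 0.17 in WT HL and -0.71 ± 0.17 in mutant HL, with limma's adjusted p at most 0.00363. The call in mutant FL was lost on the deposited TPM scale (-0.78, adjusted p = 0.11).

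Hk2, the inducible hexokinase that traps glucose in the cell (chr6:82725025-82774454), ranged from 2.81 to 11.3 rescaled TPM with a median of 5.28. Its highest value was in E10.5 WT FL replicate 1 (11.3), where the other 2 libraries of the group had 3.82 and 4.71. Hk2 passed in no comparison between stages. In WT FL its change was -0.53, and -0.79 to -0.11 with 1 library left out. A fall was called in 1 of these 6 fits (limma, adjusted p = 0.0445). Pfkl, a phosphofructokinase subunit at the committed step (chr10:77986947-78010083), ranged only from 16.6 to 30.4, and its E11.5 means were 86.1 to 100% of the E10.5 means. Aldoa, the main aldolase (chr7:126795234-126800751, with a second model of this symbol next to it), ranged from 89.3 to 209. Aldoa fell in WT FL by 0.56 ± 0.17 (limma, adjusted p = 0.0157), in WT HL by 0.55 ± 0.17 (0.0169) and in mutant FL by 0.46 ± 0.17 (0.0466). In mutant HL its change was -0.31 ± 0.17 (0.163). In mutant FL the Aldoa call was lost under 10 of 14 alternatives. These include leaving out any 1 of the 6 libraries (-0.52 to -0.35, adjusted p 0.0536 to 0.166). In WT FL it was lost under 2 of 13, among them without E11.5 WT replicate 2 (-0.49, 0.0631). In WT HL it was lost without E10.5 replicate 2 (-0.43, 0.0826) or E11.5 replicate 3 (-0.48, 0.0662). In mutant HL a fall was called without E10.5 replicate 3 (-0.57, 0.00674).

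Pgk1 encodes phosphoglycerate kinase 1, which makes the first ATP gained in glycolysis (chrX:106187100-106203699). In WT FL it was 152, 129 and 119 rescaled TPM at E10.5 and 66.4, 77.8 and 85.1 at E11.5. In mutant FL it was 171, 164 and 179, then 73.2, 71.5 and 73.8. Both FL genotypes separated fully by stage. In WT HL it was 199, 170 and 140, then 87.9, 79.0 and 78.6. In mutant HL it was 156, 177 and 124, then 84.2, 86.0 and 101. No E11.5 library of any group reached the lowest E10.5 library. Pgk1 fell by 0.80 ± 0.14 in WT FL (limma, adjusted p = 0.000386), by 1.22 ± 0.14 in mutant FL (1.06e-05), by 1.03 ± 0.14 in WT HL (3.38e-05) and by 0.74 ± 0.14 in mutant HL (0.000686). The 4 group means at E11.5 lay between 72.8 and 90.3, and those at E10.5 between 134 and 171.

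Ldha encodes the lactate dehydrogenase subunit that favours lactate, and it had the highest median of the members, 181 rescaled TPM. In WT FL it was 293, 195 and 186 at E10.5 and 105, 127 and 123 at E11.5. In mutant FL it was 296, 265 and 277, then 127, 117 and 118. In FL the lowest E10.5 library was above the highest E11.5 library in each genotype. In WT HL it was 278, 279 and 233, then 133, 139 and 124. The mutant HL libraries had 279, 298 and 220, then 142, 133 and 175. The HL libraries also separated by stage. Ldha fell by 0.89 ± 0.16 in WT FL (limma, adjusted p = 0.000376), 1.20 ± 0.16 in mutant FL (4.4e-05), 0.99 ± 0.16 in WT HL (0.000129) and 0.82 ± 0.16 in mutant HL (0.000707). The falls of Pgk1 and Ldha passed the test in each of the 4 comparisons under every alternative tried. Reads of Pgk1, Ldha and Aldoa may be shared with processed copies elsewhere in the genome, and how the authors assigned such reads is not given in the sources used here. The same holds for strand, and antisense models overlap Slc2a1, Hk2, Aldoa, Bnip3 and Rnu11. Those on the first 3 that the files list were at most 1.01 rescaled TPM, and the one on Rnu11, Gm28872, ranged from 25.1 to 487.

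Pdk1 encodes pyruvate dehydrogenase kinase 1, which inhibits pyruvate dehydrogenase and so the conversion of pyruvate to acetyl-CoA (chr2:71873224-71903858). In WT HL it was 19.1, 15.8 and 11.7 rescaled TPM at E10.5 and 6.58, 6.26 and 6.60 at E11.5. In mutant FL it was 13.5, 13.7 and 11.6, then 6.19, 4.68 and 4.09. Neither pair overlapped. In WT FL it was 23.7, 9.55 and 8.22, then 5.26, 7.08 and 7.99, so that replicate 1 stood apart at E10.5. The mutant HL libraries had 13.3, 14.4 and 8.76, then 6.21, 5.89 and 8.17. Pdk1 fell by 1.12 ± 0.27 in WT HL (limma, adjusted p = 0.0035), 1.23 ± 0.27 in mutant FL (0.00264), 0.80 ± 0.27 in WT FL (0.0268) and 0.75 ± 0.27 in mutant HL (0.0403). The fall in WT FL rested on E10.5 replicate 1: without it the change was -0.35 (adjusted p = 0.2). It was also lost without E11.5 WT FL replicate 1 (-0.65, 0.114) or 2 (-0.84, 0.0504), and under 6 of 13 alternatives in all. In mutant FL the Pdk1 call was lost under 2 of 14 alternatives, among them the deposited scale (-1.02, 0.0694). In mutant HL it was lost under 6 of 13. These include leaving out replicate 1 or 2 of either stage (-0.70 to -0.62, adjusted p 0.108 to 0.14).

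The rest of the glycolytic route was read from a list of 28 further genes, of which 25 were tested between stages. In WT FL 7 fell and 3 rose, in mutant FL 6 fell and 3 rose, in WT HL 6 fell and 5 rose, and in mutant HL 5 fell and 5 rose. Over all genes 16.4%, 17.3%, 17.9% and 17.5% fell and 22.4%, 18.1%, 23% and 18% rose in these comparisons. Pgam1, Eno1 and Pkm, which act after Pgk1 on the way to pyruvate, and the lactate carriers Slc16a1 and Slc16a3 fell in 4 of 4 comparisons. Their changes lay between -1.12 and -0.88 for Pgam1, -1.46 and -1.05 for Eno1, -0.94 and -0.76 for Pkm, -0.72 and -0.54 for Slc16a1, and -1.48 and -0.70 for Slc16a3. These 5 had negative values on all scales tried. On the deposited scale Pgam1, Eno1, Pkm and Slc16a1 each passed in 3 of 4. Eno3, a further enolase, fell in 3 of 4 (-1.46 ± 0.20 in WT FL, adjusted p = 4.78e-05).

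Several genes of the same steps went the other way or passed in none. Slc2a3, a second glucose transporter, rose in WT HL and mutant HL (on the deposited scale in 1 of 4), by 1.64 ± 0.24 in the latter (limma, adjusted p = 8.64e-05), where its mean went from 9.72 ± 2.11 to 31.9 ± 0.772 rescaled TPM (SD, n = 3). Ldhb, the subunit that favours pyruvate, rose in the same 2 HL comparisons, with changes of 0.50 to 1.04 over the 4 on the rescaled values. The Ldhb changes on the deposited scale were 0.04 to 0.74 and 0 passed. Hk1 rose in 3 of 4 (0.90 ± 0.19 in mutant FL, adjusted p = 0.00158), but was below 0 on the deposited scale in WT FL and mutant HL (-0.08 and -0.04). Pfkfb2 rose in 4 of 4 (0.63 ± 0.13 in WT FL, 0.00105), but on the deposited scale it passed in 0 and was -0.13 in mutant HL. Gapdh, at 156 to 341 rescaled TPM, passed in 0 of 4, with values of -0.42 to -0.15. On the deposited scale it fell in 2 and was 0.09 in mutant FL.

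**Figure D2:**
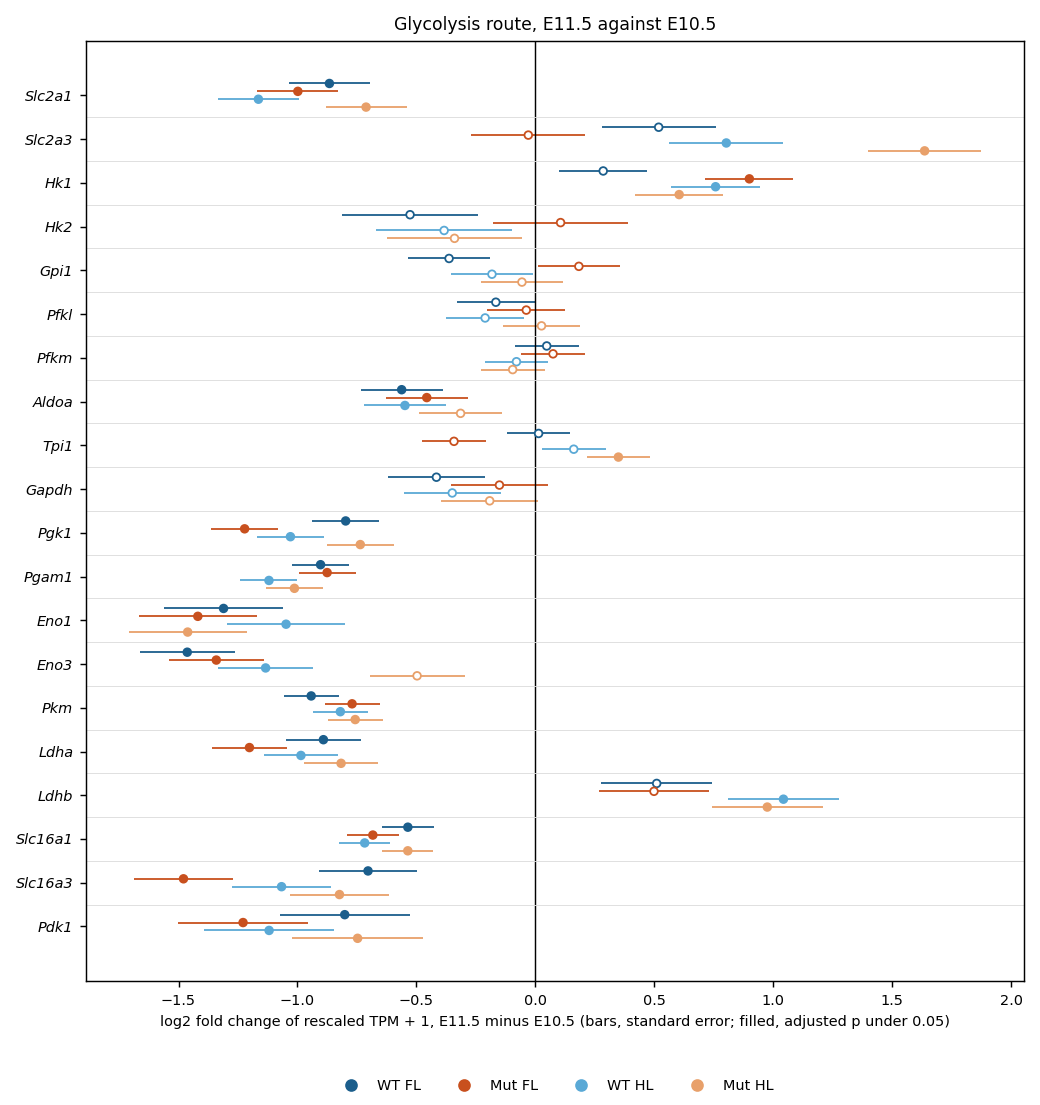
Log2 fold change of rescaled TPM + 1 from E10.5 to E11.5 (horizontal axis, E11.5 minus E10.5) for 20 genes in the order of the pathway (vertical axis), in WT and mutant FL and HL. Points are fitted changes, bars are standard errors, and filled points passed the test. Pgk1, Pgam1, Eno1, Pkm, Ldha, Slc16a1 and Slc16a3 lie left of 0 with filled points in all 4 comparisons, and Slc2a3 and Ldhb lie mostly to the right.

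Bnip3 encodes a mitochondrial outer membrane protein that promotes mitophagy and is a direct target of HIF-1 (chr7:138890836-138909519). In mutant FL it was 21.8, 21.9 and 19.4 rescaled TPM at E10.5 and 10.7, 11.4 and 11.0 at E11.5. The mutant HL libraries had 12.1, 13.2 and 10.9, then 16.3, 17.6 and 20.04. The stages did not overlap in either mutant limb, but the order was opposite: E10.5 was higher in FL and lower in HL. In WT FL it was 22.0, 16.1 and 13.0, then 14.3, 19.4 and 15.1. In WT HL it was 11.8, 17.9 and 15.4, then 15.04, 17.1 and 17.6. Both WT limbs overlapped between stages. Bnip3 fell by 0.87 ± 0.16 in mutant FL (limma, adjusted p = 0.00069), whereas in mutant HL it rose by 0.54 ± 0.16 (0.0137) on the rescaled values but was -0.27 on the deposited scale. The rise was lost without E10.5 mutant HL replicate 3 (0.47, 0.0505) or E11.5 mutant HL replicate 3 (0.46, 0.0534). The fall in mutant FL passed without any 1 of the 6 libraries. It was lost under 2 of 14 alternatives, among them the deposited scale (-0.64, 0.137). The WT values were -0.05 ± 0.16 (0.834) in FL and 0.15 ± 0.16 (0.486) in HL.

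The difference between the limbs was tested after these values had been seen, as HL minus FL of the change from E10.5 to E11.5, over all genes. For Bnip3 it was 1.41 ± 0.22 in mutants (limma, adjusted p = 0.0152), 1 of 4 genes that passed among 12399 (0.0323%), and 0.20 ± 0.22 (0.918) in WT, where 0.0161% of genes passed. Without E10.5 WT FL replicate 1 and E10.5 mutant FL replicate 3 the mutant value was 1.46 (0.00573). It stayed positive under 19 alternatives (0.38 to 1.49) and lost its call under 6. It was 0.38 (0.395) on the deposited scale, where 49% of all genes passed. The call was also lost without the Xist-positive libraries (1.26, 0.672), on protein-coding genes alone (1.31, 0.0504), and on leaving out E10.5 mutant FL replicate 1 (1.38, 0.0716), E11.5 mutant FL replicate 1 (1.39, 0.0526) or E11.5 mutant HL replicate 2 (1.42, 0.0529). Summed levels of 10 erythroid markers were 4503 to 5482 rescaled TPM in E10.5 mutant FL, where Bnip3 was highest, against 2038 to 2890 in E10.5 WT FL and 1906 to 2831 in E10.5 mutant HL. At E11.5 they were 3147 to 3821 in mutant FL and 2661 to 3749 in mutant HL. Between the stages 5 of 9 tested erythroid markers fell and 0 rose in mutant FL, and 0 fell and 1 rose in mutant HL. Summed levels of 8 surface ectoderm markers spanned 46.5 to 87.5 in E10.5 mutant FL and 48.3 to 62.1 a day later, where 3 rose and 4 fell. In mutant HL they spanned 27.8 to 72.4 and then 74.9 to 83.8, where 5 of 8 rose and 0 fell. The part of blood and ectoderm in the Bnip3 values was not tested.

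By group mean, Bnip3 was lowest in E11.5 mutant FL (11.1 ± 0.354, SD, n = 3), followed by E10.5 mutant HL (12.1 ± 1.18) and E10.5 WT HL (15.04 ± 3.04). E11.5 WT FL (16.2 ± 2.74), E11.5 WT HL (16.6 ± 1.35), E10.5 WT FL (17.1 ± 4.60) and E11.5 mutant HL (17.97 ± 1.91) came next, and E10.5 mutant FL was highest (21.04 ± 1.46). Each neighbouring pair in this order overlapped in its libraries.

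Vegfa encodes the main growth factor for vessels (chr17:46016993-46032369). In WT HL it was 5.97, 8.68 and 5.89 rescaled TPM at E10.5 and 11.4, 11.3 and 13.9 at E11.5, without overlap. In WT FL it was 11.3, 9.68 and 11.55, then 9.13, 13.6 and 11.0. In mutant FL it was 11.2, 11.0 and 6.89, then 7.87, 8.41 and 10.8. The FL groups overlapped in both genotypes. In mutant HL it was 7.87, 9.10 and 6.17, then 10.4, 10.8 and 8.33, also with overlap. Vegfa rose in WT HL by 0.77 ± 0.19 (limma, adjusted p = 0.0034), but on the deposited scale the value was 0.18 (0.672). The other 3 changes were 0.04 ± 0.19, -0.07 ± 0.19 and 0.32 ± 0.19 in WT FL, mutant FL and mutant HL. Kdr, which encodes the main receptor for this factor, was 1.55 to 7.70 rescaled TPM and passed in 0 of 4. The summed level of 8 endothelial markers ranged over 22.6 to 45.8 in libraries of E10.5, and over 14.98 to 31.1 a day later. Of these markers, 3 fell in WT FL, 3 in WT HL, 5 in mutant HL and 1 in mutant FL, where 1 also rose and 5 of 8 changes were above 0. Their part in the Vegfa values, and in those of the glycolysis members, was not tested.

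Egln3, an oxygen-sensing prolyl hydroxylase (chr12:54178981-54203860), was near the floor of the data. It ranged from 0.258 to 0.774 rescaled TPM and reached 1 deposited TPM in 3 libraries only. It passed in no comparison between stages and was not tested within E11.5, where it missed the filter on low values.

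A list of 34 other hypoxia-response genes, of which 30 were tested, was counted in the same way. In WT FL 9 rose and 3 fell, in mutant FL 7 and 1, in WT HL 11 and 2, and in mutant HL 10 and 1. Of all genes, 22.4% rose and 16.4% fell in WT FL, 18.1% and 17.3% in mutant FL, 23% and 17.9% in WT HL, and 18% and 17.5% in mutant HL. On the deposited scale these counts were 1 and 3, 4 and 0, 1 and 9, and 1 and 12, where the medians of all genes were -0.27, 0.18, -0.42 and -0.61. Ddit4, an inhibitor of mTORC1, rose in 4 of 4 (0.72 to 1.40), as did Lox, which crosslinks collagen (0.46 to 0.86), and both stayed above 0 on every scale. Lox was near the floor of the data, however, at 0.101 to 1.61 rescaled TPM, and reached 1 deposited TPM in only 5 libraries. Bnip3l, the close relative of Bnip3, also rose in 4 of 4 (0.44 to 0.79) but was -0.05 on the deposited scale in mutant HL. Egln2, a further prolyl hydroxylase, rose in 4 of 4 (0.40 to 0.76), but was -0.04 and -0.30 on the deposited scale in WT FL and mutant HL. P4ha1, a collagen prolyl hydroxylase subunit, fell in 4 of 4 (-1.02 to -0.65) and was negative on all scales. Kdm3a, a histone demethylase, rose in 3 of 4 (0.81 ± 0.12 in WT HL, adjusted p = 7.02e-05), but was -0.22 on the deposited scale in mutant HL. Angptl4 also rose in 3 of 4 (0.94 ± 0.19 in mutant FL, limma, adjusted p = 0.00149). On the deposited scale Angptl4 rose in 1 of 4 and was -0.14 in mutant HL.

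The oxygen sensors and the factor itself were also read. Hif1a ranged from 14.6 to 23.2 rescaled TPM and passed in 0 of 4 stage comparisons (-0.25 to -0.09). On the deposited scale it fell in 2. Its partner Arnt and the prolyl hydroxylase Egln1 also passed in 0 of 4 on either scale. Vhl, which targets hydroxylated HIF for destruction, was 4.01 to 8.97 and fell in both WT limbs. In mutant FL the Vhl value was -0.06, but 0.14 on the deposited scale. Epas1, the gene of HIF-2α, stayed under 1 TPM in every library (0.0297 to 0.388) and was not tested.

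**Figure D3:**
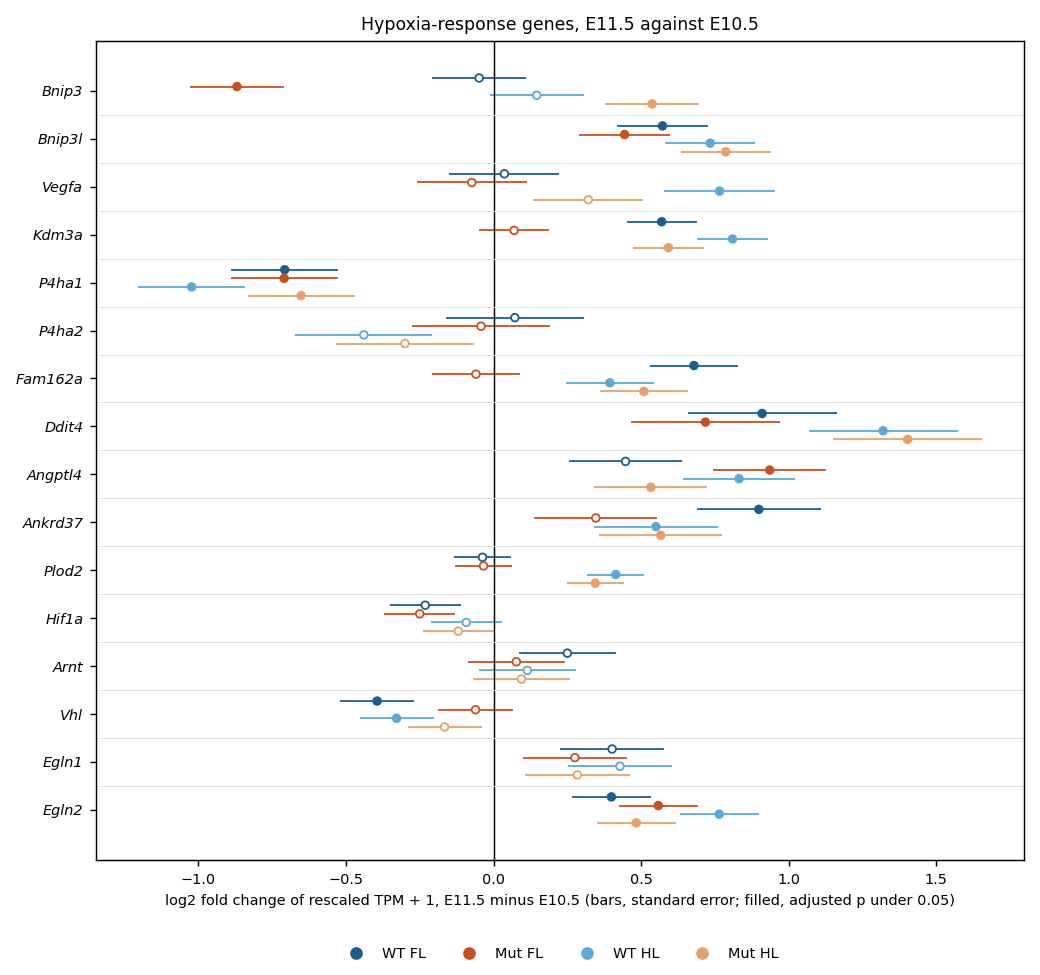
Log2 fold change of rescaled TPM + 1 from E10.5 to E11.5 (horizontal axis) for the members Bnip3 and Vegfa and 14 further hypoxia-response genes (vertical axis), in WT and mutant FL and HL. Points are fitted changes, bars are standard errors, and filled points passed the test. Bnip3 in mutant FL lies at -0.87 and in mutant HL at 0.54, P4ha1 lies left of 0 throughout, and Ddit4 and Bnip3l lie to the right.

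No member passed the test between mutants and WT at either stage or in either limb. In limma's fits 0 of 10 members passed in E10.5 FL, where 0.0251% of 11955 genes did, and 0 of 10 in E10.5 HL (0.00836%). At E11.5, 0 of 9 tested members passed in FL (1.74% of 11126 genes) and 0 of 9 in HL (0.018%). At an unadjusted p under 0.05 the counts were 0, 0, 2 (Bnip3 and Pdk1 in E11.5 FL) and 0, where 5.24%, 1.99%, 22.5% and 6.02% of all genes were. In E10.5 FL the count was also 0 without the libraries that stood apart. In the lists of other glycolysis and hypoxia genes, 1 passed in the 4 comparisons together: Kdm3a fell in E11.5 FL by 0.40 ± 0.08 (adjusted p = 0.0284). The Kdm3a call was lost under 12 of 14 alternatives, and on the deposited scale its value was 0.09. The deposited scale called 3 members higher in E11.5 mutant FL, Ldha (0.55, 0.0473), Aldoa (0.75, 0.0373) and Hk2 (0.83, 0.0355), where the median of all genes was 0.39 and 98.9% of 3733 calls were higher, against 27.3% of 194 on the rescaled values.

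Bnip3 in E11.5 FL came closest. It was 14.3, 19.4 and 15.1 rescaled TPM in WT and 10.7, 11.4 and 11.0 in mutants, with no overlap (14% of all genes were lower in mutants without overlap there). Its change was -0.50 ± 0.11 (limma, adjusted p = 0.0531), and it passed without E11.5 WT FL replicate 1 (-0.57, 0.0401). In the same comparison the values were -0.36 ± 0.15 (0.19) for Pdk1, 0.41 ± 0.19 (0.224) for Hk2, 0.24 ± 0.13 (0.305) for Aldoa and -0.28 ± 0.15 (0.289) for Vegfa. Of the genes that define the fall between stages, Pgk1 was at -0.06 ± 0.11, Ldha at 0.04 ± 0.11 and Slc2a1 at 0.09 ± 0.15. Summed myogenic markers were 9.88 to 11.9 in E11.5 mutant FL and 6.35 to 6.73 in E11.5 WT FL, and 1 of 5 tested rose. Endothelial markers summed to 21.8 to 29.0 in mutants and 17.3 to 19.6 in WT there, and surface ectoderm markers to 48.3 to 62.1 and 64.0 to 90.2, with 0 of 8 past the test in each list. Whether any of these bears on the Bnip3 value was not tested.

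In E11.5 HL, Vegfa was 11.4, 11.3 and 13.9 in WT and 10.4, 10.8 and 8.33 in mutants. These libraries did not overlap, as in 8.45% of all genes in that direction, and the change was -0.28 ± 0.15 (limma, adjusted p = 0.754). In E10.5 FL, Pgk1 was 152, 129 and 119 in WT and 171, 164 and 179 in mutants, likewise without overlap (5.47% of all genes in that direction), with a change of 0.37 ± 0.17 (0.904). The remaining member values at E10.5 lay within the spread of the libraries, with changes from -0.22 to 0.35 in FL and from -0.32 to 0.17 in HL.

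**Figure D4:**
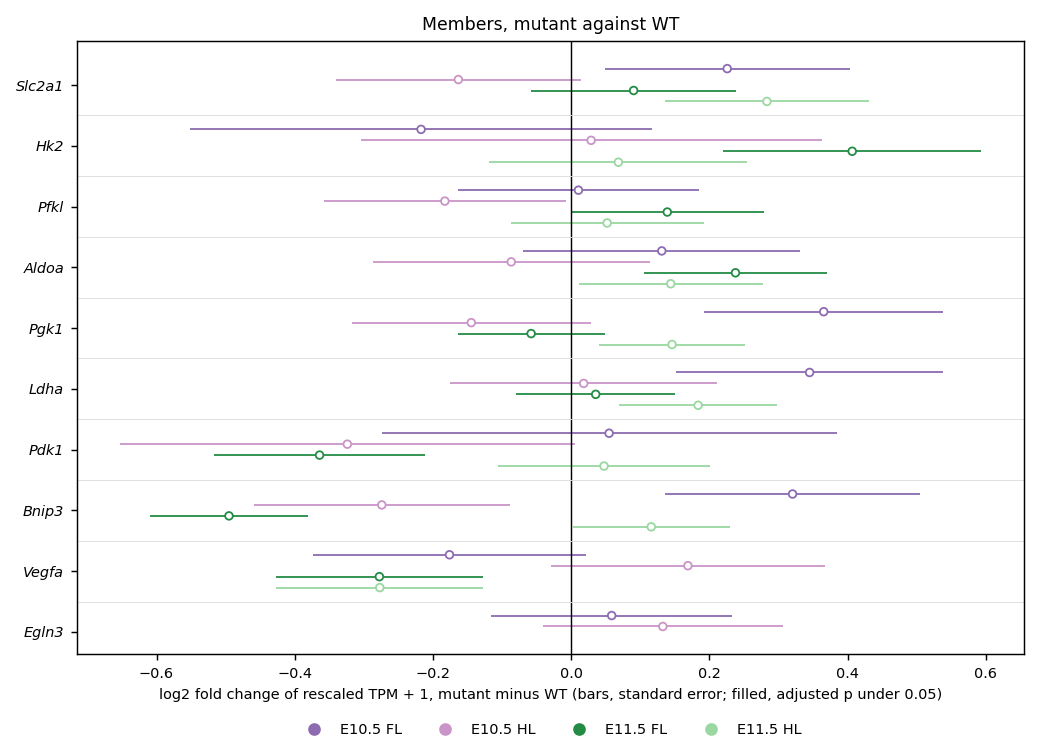
Log2 fold change of rescaled TPM + 1 in mutants against WT (horizontal axis, mutant minus WT) for the members (vertical axis) at each stage and limb. Points are fitted changes and bars are standard errors; no point is filled, since none passed the test. Bnip3 in E11.5 FL, at -0.50, is the farthest from 0, and Egln3 has no E11.5 point because it was not tested there.

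Differences of the mutant effect were tested too; these, the stage and the limb comparisons share libraries. No member passed for the difference between limbs at E10.5 (0% of all genes passed) or E11.5 (0.00899%), or for the difference between stages in FL (0.0645%) or HL (0.00807%). At an unadjusted p under 0.05 these counts were 1, 1, 2 and 0 (2.49%, 13.4%, 12.7% and 2.64% of all genes). For Bnip3 the mutant effect at E11.5 was 0.61 ± 0.16 higher in HL than in FL (limma, adjusted p = 0.281). In FL the mutant effect on Bnip3 at E11.5 minus that at E10.5 was -0.82 ± 0.22 (0.217).

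Of the members, Bnip3 alone passed between hindlimb and forelimb buds, in E11.5 mutants. In limma's fits 0 of 10 members passed between HL and FL in E10.5 WT (0.092% of all genes passed), 0 of 10 in E10.5 mutants (0.0586%), 0 of 9 in E11.5 WT (0.144%) and 1 of 9 in E11.5 mutants (0.44%). At an unadjusted p under 0.05 the counts were 1, 1, 1 and 4 (9.56%, 6.67%, 6.94% and 16.1% of all genes). The call was Bnip3, at 16.3, 17.6 and 20.04 rescaled TPM in E11.5 mutant HL and 10.7, 11.4 and 11.0 in FL, a difference of 0.65 ± 0.11 (adjusted p = 0.0374). It was lost under 11 of 14 alternatives, which include leaving out any 1 of the 6 libraries (adjusted p 0.0533 to 0.133), and on the deposited scale its value was 0.17 (0.462), where 0.545% of 5140 calls were higher, against 59.2% of 49 on the rescaled values. At E10.5 the HL libraries of mutants were the lower ones. Bnip3 was then 12.1, 13.2 and 10.9 in HL and 21.8, 21.9 and 19.4 in FL, without overlap (9.8% of all genes in that direction), with a difference of -0.76 ± 0.18 (0.345). In E10.5 WT, Vegfa was 5.97, 8.68 and 5.89 in HL and 11.3, 9.68 and 11.55 in FL, without overlap (6.08% of all genes in that direction), with a difference of -0.63 ± 0.20 (0.323). In the other direction Slc2a1 (13.3 to 14.5 in FL, 15.7 to 21.4 in HL) and Pfkl (19.2 to 24.9 and 25.2 to 30.4) were higher in E10.5 WT HL without overlap, as were 5.65% of all genes. At E11.5 the members higher in HL without overlap were Aldoa in WT (4.96% of all genes) and Bnip3, Pgk1 and Ldha in mutants (8.86%). Of the other hypoxia genes, Plod2, a collagen lysyl hydroxylase, was lower in E10.5 WT HL by a difference of -0.71 ± 0.11 (0.0401), which was lost under 11 of its alternatives.

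The genes whose pattern was most like the mean of the 10 members were found by Pearson correlation of log2 levels over the 24 libraries, among 5364 protein-coding genes outside the lists. They were Pgm2 (r = 0.95), Wrb (0.92), 9430015G10Rik (0.92), Actl6a (0.91) and Tada1 (0.91). The stage difference is shared by the libraries and takes part in these values. The members did not share 1 pattern. Over the 24 libraries Pgk1 correlated at 0.98 with Ldha and 0.95 with Slc2a1, but at 0.23 with Bnip3, -0.10 with Egln3 and -0.42 with Vegfa. Likeness to the mean is therefore not likeness to each member. After the group means were taken away, the 5 most alike were Actr8 (0.89), Adsl (0.89), Elovl5 (0.88), Hs6st2 (0.87) and Cops8 (0.87), none of them in the first set. Pgm2 encodes a phosphoglucomutase, and its level ranged from 2.84 to 9.95 rescaled TPM.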

How the data were processed

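Total RNA from dissected limb buds was sequenced in 24 libraries, 3 in each of 8 groups set by stage, genotype and limb, per the labels. The authors deposited TPM values per gene symbol. HISAT2 and mm10 are named in the submitters' processing notes, and reads of E10.5 libraries were trimmed at the 3′ end, per the labels. Which quantifier, annotation and strand setting were used is not given in the sources used here. TPM keeps no depth, so no counting interval is given.

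Here each library was multiplied by a factor that gave it the same median log2 level over genes expressed throughout (minimum 5 TPM; 4168 genes in fits of E10.5, 3949 for E11.5 and 3518 with both stages). Genes with at least 1 deposited TPM in 3 libraries were tested on log2(rescaled TPM + 1) with limma 3.58.1 in R 4.3.3 (trend, two-sided, Benjamini-Hochberg, threshold 0.05). Comparisons within a stage used its 12 libraries (8 residual degrees of freedom) and those between stages all 24 (16). The code was tested on simulated data.

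The members and lists were chosen with earlier results of these data known. Of the other pathway genes, the text names in each comparison up to 3 rises and 3 falls with the smallest adjusted p, and always Hif1a, Epas1, Vhl, Egln1, Gapdh, Slc2a3 and Kdr. Ldhb, Arnt and P4ha1 were chosen after their values were seen. Alternatives were other scalings, pseudocounts, filters and sets of libraries.

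All 3 correlations of same-numbered libraries were over 0.1 only between HL and FL of E10.5 mutants (0.106, 0.182 and 0.198). Between HL and FL of E10.5 WT they were 0.15, 0.0662 and 0.286, and 3 of 3 were best with their own number. In E11.5 mutants they were -0.0114, 0.259 and 0.178, and in E11.5 WT -0.171 to -0.0477. Pairing of the limbs by number was thus not settled by these correlations. At each stage the Xist-positive libraries, all of them mutant, had the same replicate numbers in FL and HL. Same-numbered FL and HL libraries may therefore share an embryo, whereas the main fits treat all libraries as independent. Promoter windows are from RefSeq, GRCm38.p6, and gene coordinates from GENCODE M21, GRCm38.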

Additional observations from a re-analysis of the deposited data

Results flagged for a closer look

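The change of Bnip3 between E10.5 and E11.5 differed between the limbs of mutants by 1.41 ± 0.22 on the log2 scale (HL minus FL; limma, adjusted p = 0.0152 over all genes). It was singled out because the test of the difference itself passed, a comparison chosen after the values were seen. On the deposited TPM scale, where 49% of all genes passed, the value was 0.38 (adjusted p = 0.395). The other 5 alternatives under which the call was lost gave 1.26 to 1.42.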

How the results depend on the processing

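The falls of Pgk1 and Ldha between stages passed under every alternative run. Counts of members that passed changed as follows. On deposited TPM, 3 passed in mutants against WT in E11.5 FL, 2 between stages in mutant FL, and 2 for the limb difference of the stage change in mutants. Bnip3 was not among the last (0.38, adjusted p = 0.395), and 33.6%, 8.23% and 49% of all genes passed there. That limb difference had 0 members on coding genes alone, where 1 gene passed in all, against 4 genes in the main fit. Between HL and FL of E11.5 mutants the count was 0 on deposited TPM, where 46.2% of all genes passed. The count was also 0 with no filter, with only the libraries compared, with all 24 libraries and without the Xist-positive libraries. Between stages it was 3 in WT FL without E10.5 WT FL replicate 1 and E10.5 mutant FL replicate 3, and 3 in mutant FL without the Xist-positive libraries. Leaving out 1 library gave 0 to 1 in mutants against WT in E11.5 FL (1 without E11.5 WT FL replicate 1). It gave 0 to 0 between HL and FL of E11.5 mutants. Between stages in WT FL it gave 3 to 6 (3 without E11.5 WT FL replicate 2), and for the limb difference in mutants 0 to 1. Counts with libraries left out, with no filter, with only the libraries compared and with all 24 libraries are given without the share of all genes. They do not tell whether the members or all calls moved.

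Signs turned as follows; the cause was not tested. On deposited TPM, mutant against WT gave -0.073 for Aldoa, -0.13 for Pdk1, -0.18 for Pfkl and -0.017 for Egln3 in E10.5 FL, and 0.019 for Aldoa in E10.5 HL. It gave 0.45 for Pgk1, 0.068 for Pdk1, 0.19 for Vegfa and 0.091 for Kdm3a in E11.5 FL, and -0.029 for Pdk1, -0.0062 for Hk2 and -0.036 for Pfkl in E11.5 HL. Between stages it gave -0.40 for Vegfa in WT FL, 0.14 for Vegfa and 0.19 for Pfkl in mutant FL, and -0.47 for Bnip3 in WT HL. In mutant HL it gave -0.27 for Bnip3, -0.46 for Vegfa, -0.80 for Pfkl and -0.046 for Bnip3l. On coding genes alone, the mutant values were -0.039 for Pfkl in E10.5 FL and 0.023 for Pgk1 in E11.5 FL. The stage values there were -0.010 for Vegfa in WT FL, 0.0046 for Vegfa and 0.044 for Pfkl in mutant FL, and -0.059 for Pfkl in mutant HL. Without the Xist-positive libraries, the mutant values were 0.0021 for Vegfa in E10.5 FL, 0.093 for Pgk1 and 0.17 for Aldoa in E10.5 HL, and -0.079 for Pdk1 and -0.015 for Hk2 in E11.5 HL. Without E10.5 WT FL replicate 1 and E10.5 mutant FL replicate 3, they were 0.34 for Hk2, 0.057 for Vegfa and -0.13 for Egln3 in E10.5 FL, and the stage values were 0.15 for Bnip3 in WT FL and -0.034 for Hk2 in mutant FL.

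With the replicate number as a block, 6, 6, 6 and 4 members passed between stages in WT FL, mutant FL, WT HL and mutant HL (33.1%, 28.1%, 34.6% and 28.9% of all genes), and 0 passed in mutants against WT. Under the block Bnip3 in mutant HL was 0.39 (adjusted p = 0.128), and the sign turned for Vegfa in WT FL (-0.11), Hk2 in mutant FL (-0.26), Bnip3 in WT HL (-0.0041) and Pfkl in mutant HL (-0.16). Same-numbered libraries did not deviate together between stages. Between HL and FL 0 members passed with the block in E10.5 mutants (0.125% of all genes) and 0 in E10.5 WT (0.109%). In E11.5 mutants 1 passed (0.315%). These counts are the same as without the block.

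Leaving out 1 library at a time turned the sign within these ranges. In mutants against WT in E10.5 FL they were -0.22 to 0.50 for Pdk1, -0.49 to 0.20 for Hk2, -0.28 to 0.014 for Vegfa, -0.063 to 0.13 for Pfkl and -0.090 to 0.17 for Egln3. In E10.5 HL they were -0.069 to 0.14 for Ldha, -0.21 to 0.16 for Aldoa, -0.30 to 0.044 for Slc2a1 and -0.12 to 0.29 for Hk2. In E11.5 FL they were -0.15 to 0.022 for Pgk1 and -0.040 to 0.076 for Ldha. In E11.5 HL they were -0.079 to 0.12 for Pdk1, -0.025 to 0.18 for Hk2 and -0.040 to 0.14 for Pfkl. Between stages they were -0.22 to 0.15 for Bnip3 and -0.10 to 0.17 for Vegfa in WT FL, and -0.037 to 0.22 for Hk2, -0.28 to 0.036 for Vegfa and -0.17 to 0.10 for Pfkl in mutant FL. They were -0.0063 to 0.27 for Bnip3 and -0.13 to 0.030 for Egln3 in WT HL, and -0.14 to 0.18 for Pfkl in mutant HL. Leaving out the Xist-positive libraries leaves 1 mutant library in each E10.5 limb, which is assumed to vary like the others. TPM keeps no depth, so what depth limits for low genes such as Egln3 is unknown.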
